A study of Mus musculus with 15 samples.

Results

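The 34 genes described here are markers of T cells and natural killer (NK) cells, measured in scraped mucosa of the distal colon of mice with chronic chemically induced colitis. They were taken by name: every non-control probe whose gene name was 1 of the 34 was used, which gave 52 probes. For each gene the brightest probe was kept among those well above background, a call the scanner software makes for each spot, on at least 5 of 15 arrays. By that minimum 22 of the 34 markers were tested and 12 were not, out of 22012 genes tested on the arrays. The 22 are not all members, and a gene near the detection limit could have entered through the group in which it was higher.

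Female Balb/cJ mice, 8 weeks old at the start, formed 3 groups of 5 with 1 one-colour array per mouse. The water group had only drinking water, and its label for the compound reads vehicle control. The DSS vehicle group drank 4% dextran sulfate sodium (DSS), which injures the colon epithelium, in 3 cycles of 4 days with washouts of 3 days, and received the vehicle of filgotinib. The DSS filgotinib group had the same DSS cycles and filgotinib, a JAK1 inhibitor, by gavage once a day at 30 mg/kg. The comparisons address whether the colitis changes the T and NK cell transcripts of the mucosa and whether the inhibitor changes them in turn.

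Signals are given as a percent of each array's own 75th percentile of signal, and fold changes as differences of log2 values. The share of probes well above background was 59.8 to 63.8% in the water group, 55.0 to 60.4% in the DSS vehicle group and 52.4 to 60.2% in the filgotinib group, and no spot was saturated. The number of arrays limits the precision. The arrays lay on 6 slides scanned on 4 days. The third mouse of the DSS vehicle group and the third of the filgotinib group were each alone on a slide and a scan day. Nothing in the labels places the 5 mice of a group in separate cages or experiments, so p-values measure only the spread between these mice.

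T cells recognise antigen through a receptor whose signal passes through the CD3 and zeta chains, encoded by Cd3d, Cd3e, Cd3g and Cd247, to the kinases Lck and Zap70 and the adaptor Lat. CD4 and CD8 coreceptors separate helper from cytotoxic T cells, and costimulatory receptors such as CD28 set the strength of the response. NK cells and cytotoxic T cells kill through granules that hold granzymes and perforin. Several cytokines that act on these cells, IL-15 and interferon gamma among them, signal through receptors that use JAK1. In bulk tissue, fewer cells of a type and less RNA per cell cannot be told apart.

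Against water, 4 of the 22 tested markers were higher in the DSS vehicle group and 0 were lower at a Benjamini-Hochberg adjusted p under 0.05 in limma, a share of 18.2%, where 19% of all tested genes were called, 10.6% higher and 8.45% lower. The 4 were Gata3, Cd6, Cd247 and Nkg7. The share called in either direction lay near that of all genes. With the chosen probes the fitted change was above 0 for 22 of 22 markers, against 57% of all genes. Their median was 0.53 on the log2 scale, against 0.04 for all genes. For Lck and Itgae the sign depended on the probe, at -0.04 and -0.17 with the mean of a gene's passing probes. At an unadjusted p under 0.05, 13 of the 22 were higher, where 19.9% of all genes were.

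**Figure D1:**
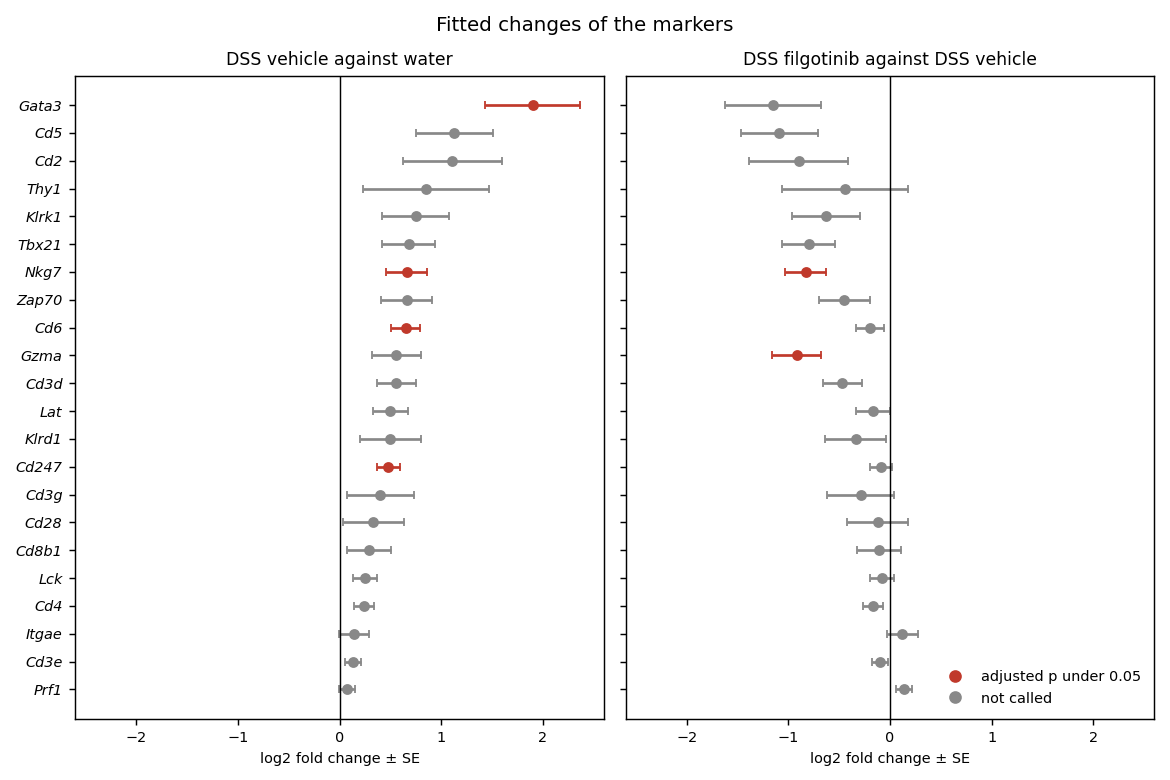
Fitted log2 fold changes (horizontal axis, points with SE bars from limma) of the 22 tested markers (rows) in the DSS vehicle group against water (left) and in the filgotinib group against the DSS vehicle group (right); red points passed the adjusted threshold. On the left all 22 points lie above 0, from 0.07 for Prf1 to 1.90 for Gata3, and on the right 20 of 22 lie below 0.

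The transcription factor gene Gata3, which sets the type 2 helper T cell fate and is also needed by group 2 innate lymphoid cells, had the largest fitted change of the 22. Its scaled signal in the water mice was 3.28, 3.5, 2.53, 1.64 and 3.93%. The DSS vehicle mice measured 6.84, 6.91, 23.3, 7.83 and 15.8%. All 5 DSS vehicle mice lay above all 5 water mice, and mice 3 and 5 stood highest. The fitted difference was 1.90 ± 0.47 (SE) on the log2 scale, 3.73-fold (adjusted p = 0.0136). In the water group 3 of 5 arrays were well above background, so its level there is partly at the detection limit. With normexp background correction and quantile normalization the difference was 0.80 (adjusted p = 0.00976). Restricted to the first scan day, which held 3 mice of each of these groups, the difference was 1.83 (adjusted p = 0.107 in the fit of that day alone). On that day the water mice lay on slide 1 and the DSS vehicle mice on slide 2, so a slide difference cannot be told apart from the group.

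Cd6 and Cd5 encode related scavenger-type receptors that sit beside the T cell receptor. Cd6 measured 7.52, 8.46, 8.13, 9.24 and 11.1% in the water mice and 12, 12, 15.2, 13.8 and 16.6% in the DSS vehicle mice. The groups did not overlap, and Cd6 rose by 0.65 ± 0.14 on the log2 scale, 1.57-fold (adjusted p = 0.00758). On the first scan day alone the Cd6 difference was 0.75 (adjusted p = 0.0543), and with normexp and quantile normalization it was 0.32 (adjusted p = 0.0206). Cd5 was between 1.6 and 4.53% in the water mice and between 2.99 and 12.8% in the DSS vehicle mice, with 4 of 5 DSS vehicle mice above every water mouse. Its fitted difference of 1.13 ± 0.38 did not pass (adjusted p = 0.052), and it was well above background on 8 of 15 arrays.

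Of the T cell receptor complex, 1 of 4 genes passed. Cd3d measured 15.5, 11.6, 11.5, 11.6 and 14.6% in the water mice, 15.2, 16.2, 23.6, 19.2 and 22% in the DSS vehicle mice and 14.7, 19, 11.2, 17.2 and 8.98% in the filgotinib mice. Only mouse 1 of the DSS vehicle group fell within the water range, and the difference of 0.56 ± 0.19 from water did not pass (adjusted p = 0.058). Cd3e was close to even: 81.9, 70.0, 88.1, 75.5 and 78.5% in the water mice, 72.8, 85.7, 95.9, 87.7 and 90.3% in the DSS vehicle mice and 78.5, 82.3, 88.1, 79.1 and 74.8% in the filgotinib mice. The 3 groups overlapped, and the fitted DSS vehicle difference was 0.13 ± 0.08 (adjusted p = 0.276). Cd3g measured 5.42, 4.4, 3.94, 6.77 and 4.96% in the water mice, 4.75, 4.25, 7.87, 7.38 and 10.8% in the DSS vehicle mice and 5.14, 9.61, 3.09, 8.59 and 3.61% in the filgotinib mice. Mice 3, 4 and 5 of the DSS vehicle group lay above all water mice while mice 1 and 2 did not, for a difference of 0.40 ± 0.33 (adjusted p = 0.412).

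Cd247, the zeta chain gene, was the member of the complex that passed. It measured 230.0, 236, 221, 231 and 205% in the water mice, 355, 260.0, 348, 305 and 301% in the DSS vehicle mice and 312, 269, 235, 320.0 and 344% in the filgotinib mice. Every DSS vehicle mouse lay above every water mouse, and Cd247 rose by 0.48 ± 0.11, 1.39-fold (adjusted p = 0.00863). On the first scan day alone the difference was 0.46 (adjusted p = 0.0358). In the filgotinib group against water the fitted Cd247 difference was 0.39 ± 0.11 (adjusted p = 0.0401). That call was kept in 8 of 28 alternatives: it was lost in 10 of 13 other settings, quantile normalization among them, and in 10 of 15 fits without 1 mouse. It was 1 of 22 markers called in that comparison, 4.55%, where 9.10% of all genes were called and 5.71% were called higher. The median of the markers there was 0.18, against 0.05 for all genes.

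The Cd247 values rest on 1 of 4 probes. The chosen probe, at chromosome 1 positions 167791567 to 167791626 of mm9, was well above background on 15 of 15 arrays. The probe at 167800324 to 167800383 was well above background on 2 arrays and the remaining pair on 0, and those 3 probes had group geometric means between 0.428 and 1.76%. A similar split held for Cd4, the helper T cell coreceptor. Its chosen probe at chromosome 6 positions 124814711 to 124814770 was well above background on all 15 arrays, and the other two probes on 5 and 0. The exon or UTR that each probe lies in was not analysed here. Because probes differ in binding, their signals show no order of transcript levels.

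**Figure D2:**
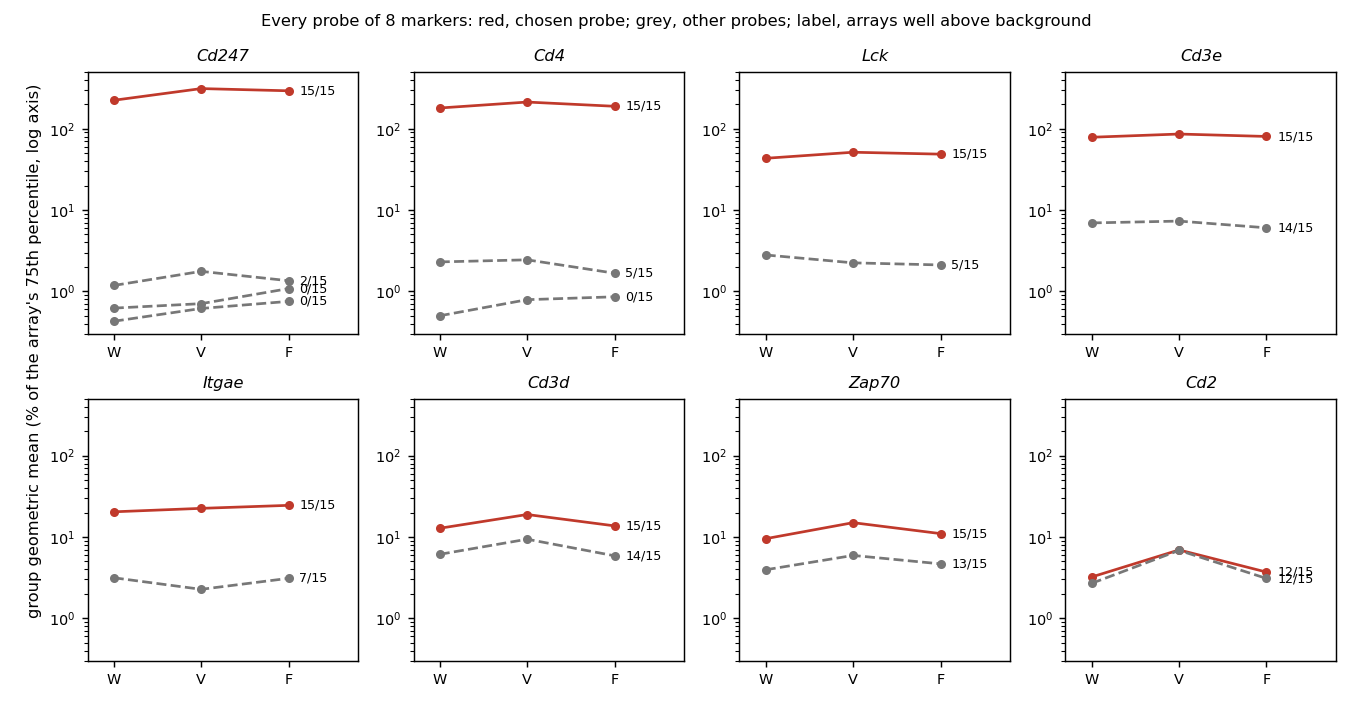
Group geometric means of the scaled signal (percent of the array's 75th percentile, log axis) for every probe of 8 markers in the water (W), DSS vehicle (V) and filgotinib (F) groups, with the chosen probe in red, the other probes in grey and, at each line's end, the arrays of 15 on which the probe was well above background. For Cd247 and Cd4 the chosen probe was well above background on 15 arrays and no other probe on more than 5.

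Both Cd2 probes were alike in direction, with DSS vehicle differences from water of 1.11 ± 0.50 for the chosen and 1.35 ± 0.45 for the other in a fit of all probes. Cd3d and Zap70 had a second probe of the same direction, at 0.62 ± 0.38 and 0.59 ± 0.22. For Lck and Itgae the second probe went the other way, at -0.32 ± 0.25 and -0.47 ± 0.26, against fitted values of 0.25 ± 0.12 and 0.14 ± 0.15 for the chosen probes. Neither Lck (adjusted p = 0.172) nor Itgae (adjusted p = 0.554) passed. With the mean of a gene's passing probes, Lck was at -0.04 and Itgae at -0.17, so no direction is given for either gene.

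Among the coreceptors, 0 of 2 tested genes passed. Cd4 was 154 to 211% in the water mice and 182 to 247% in the DSS vehicle mice, a difference of 0.24 ± 0.10 (adjusted p = 0.105). Cd8b1, the beta chain of the cytotoxic T cell coreceptor, was 3.76 to 8.51% and 4.79 to 9.44%, a difference of 0.29 ± 0.22 (adjusted p = 0.384). Cd8a, its alpha chain, was well above background on 0 of 15 arrays with either of 2 probes, so the pair of chains gives no common reading here.

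The kinase gene Zap70 ranged from 7.07 to 11.8% in the water mice and from 9.12 to 25.3% in the DSS vehicle mice, a difference of 0.66 ± 0.25 (adjusted p = 0.0826). Lat, the adaptor that Zap70 phosphorylates, ranged from 4.28 to 5.99% and from 4.99 to 9.76%, a difference of 0.50 ± 0.17 (adjusted p = 0.0585). Neither passed, and in both genes mouse 5 of the DSS vehicle group was highest. Of the costimulatory and adhesion receptors, Cd2, which binds CD48 on neighbouring cells in the mouse, differed by 1.11 ± 0.49 (adjusted p = 0.129). Cd28 differed by 0.33 ± 0.30 (adjusted p = 0.474), and mouse 5 of the DSS vehicle group at 17% stood apart from the other 4 at 5.44 to 6.91%.

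Thy1, a surface glycoprotein of mouse T cells that fibroblasts and neurons also carry, had the widest spread within groups of the 22. The water mice were at 21.8 to 61.1%, the DSS vehicle mice at 27.5 to 187% and the filgotinib mice at 15.9 to 165%. Mouse 5 of the DSS vehicle group and mouse 3 of the filgotinib group were the 2 highest. Those 2 mice also had the highest summed level of 8 fibroblast markers, 4740 and 3850%, while mouse 1 of the filgotinib group was lowest in both, at 15.9% for Thy1 and 182% for the fibroblast sum. The difference of Thy1 from water, 0.85 ± 0.62, did not pass (adjusted p = 0.359), and the part of the fibroblast transcripts in it was not tested.

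Of the cytotoxic granule genes, 1 of 3 tested passed against water. Nkg7, a membrane protein of cytotoxic granules, measured 12.4, 10.1, 9.72, 10.7 and 10.5% in the water mice and 13.6, 13.1, 19.3, 18.8 and 20.9% in the DSS vehicle mice. The groups did not overlap, mice 3, 4 and 5 stood higher than mice 1 and 2, and Nkg7 rose by 0.66 ± 0.20, 1.58-fold (adjusted p = 0.032). This call did not hold without water mouse 2, 3, 4 or 5 or without DSS vehicle mouse 3, 4 or 5, where the adjusted p lay between 0.0609 and 0.0732. It was also lost with scan day as a block (0.58, adjusted p = 0.103) and on the first scan day alone (0.67, adjusted p = 0.186). The number of markers whose groups did not overlap was 4, the called ones, and 9.72% of all genes were higher without overlap.

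Gzma, the gene of granzyme A, was 11.1, 10, 15.4, 20 and 10.1% in the water mice and 14.2, 19.1, 22.7, 18.2 and 21.4% in the DSS vehicle mice. Those groups overlapped, and the difference of 0.56 ± 0.24 did not pass (adjusted p = 0.112). Prf1, which encodes the pore-forming perforin, was 19.5 to 22.1% and 19.1 to 25.0% (0.07 ± 0.08, adjusted p = 0.58). The NK receptor genes Klrd1 (CD94) and Klrk1 (NKG2D) differed from water by 0.50 ± 0.30 and 0.75 ± 0.33, and neither passed (adjusted p = 0.254 and 0.129). For Klrk1 the difference lay in mice 4 and 5 at 13.4 and 6.32%, while the other 3 DSS vehicle mice were at 2.70 to 3.55%.

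**Figure D3:**
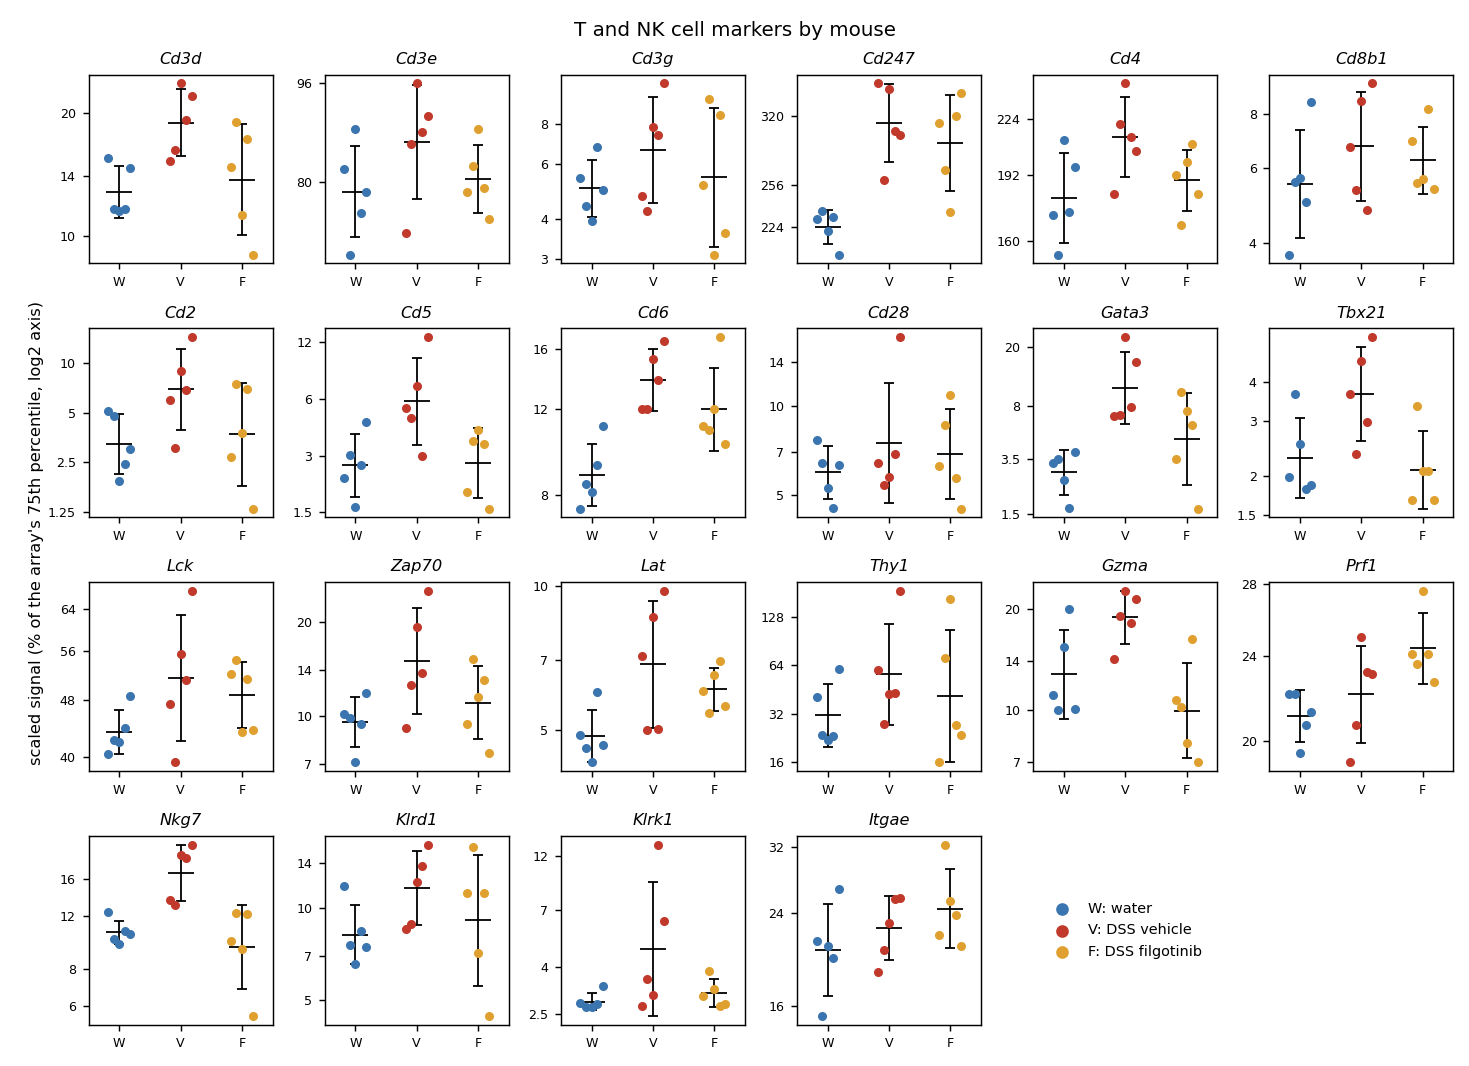
Scaled signal (percent of the array's 75th percentile, log2 axis, a separate scale for each panel) of each of the 22 tested markers in each mouse of the water (W), DSS vehicle (V) and filgotinib (F) groups; black bars are geometric means with 1 SD of the log2 values. Gata3, Cd6, Cd247 and Nkg7 have all 5 DSS vehicle mice above all 5 water mice, and for Nkg7 all 5 filgotinib mice lie below all 5 DSS vehicle mice.

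Filgotinib-treated mice were compared with the DSS vehicle mice in the same fit. Of the 22 tested markers 2 were lower and 0 were higher in limma, 9.09%, where 11% of all genes were called, 4.66% lower and 6.33% higher. At an unadjusted p under 0.05, 6 markers were lower and 0 higher, where 11.9% of all genes were lower and 16.3% higher. The 2 were the granule genes Nkg7 and Gzma. Fitted changes were below 0 for 20 of 22 markers, where 49.9% of all genes were above 0, and the median of the markers was -0.31. The exceptions were Prf1 at 0.14 ± 0.08 and Itgae, the integrin chain of intraepithelial lymphocytes, at 0.12 ± 0.15, and neither passed. The comparison shares the DSS vehicle mice with the one against water, so high values in those mice enter both.

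Nkg7 measured 9.91, 12.3, 9.33, 12.2 and 5.55% in the filgotinib mice. All 5 lay below the lowest DSS vehicle mouse at 13.1%, which happened in the lower direction for 3.29% of all genes, and they overlapped the water range of 9.72 to 12.4%. The fall was 0.83 ± 0.20 on the log2 scale, as a fitted change of -0.83, or 1.77-fold (adjusted p = 0.0185). It was called in 24 of 28 alternative settings, and was lost, among others, when only these 2 groups were fitted (adjusted p = 0.063) and on the first scan day alone (-0.87, adjusted p = 0.076). With normexp and quantile normalization it was -0.46 (adjusted p = 0.0262). On slide 2 alone, with 2 filgotinib and 3 DSS vehicle mice, the difference was -0.66.

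Gzma measured 10.7, 10.2, 7.96, 16.3 and 6.99% in the filgotinib mice, and 4 of 5 lay below every DSS vehicle mouse. The fitted change was -0.92 ± 0.24, 1.89-fold lower (adjusted p = 0.0252). Leaving out mouse 5 of the DSS vehicle group, or mouse 2 or 5 of the filgotinib group, ended the call, with adjusted p from 0.051 to 0.0667. With scan day as a block the change was -0.77 (adjusted p = 0.0995). With normexp and quantile normalization it was -0.55 (adjusted p = 0.0373), and on slide 2 alone it was -0.76.

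The promoter windows of these 2 genes are shown because they were the markers called in the filgotinib comparison. Each runs from 250 bases before the RefSeq transcription start on GRCm38.p6, 5′ to 3′ on the gene's strand, with matches to the letters searched in capitals. The Nkg7 window is chr7:43436888-43437137 on the plus strand and the Gzma window is chr13:113100982-113101231 on the minus strand.

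Nkg7: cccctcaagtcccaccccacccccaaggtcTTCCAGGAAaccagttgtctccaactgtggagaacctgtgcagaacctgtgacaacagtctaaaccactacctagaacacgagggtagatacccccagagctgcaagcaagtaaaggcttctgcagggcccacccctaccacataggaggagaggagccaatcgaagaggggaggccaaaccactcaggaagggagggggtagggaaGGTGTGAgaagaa
Gzma: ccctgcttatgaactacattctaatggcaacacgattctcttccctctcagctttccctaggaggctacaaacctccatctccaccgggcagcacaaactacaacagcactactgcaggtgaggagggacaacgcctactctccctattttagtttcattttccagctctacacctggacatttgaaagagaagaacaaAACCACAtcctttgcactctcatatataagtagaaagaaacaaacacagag

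Both strands of each window were searched for 4 sets of letters. The first was TTCNNNGAA, the spaced palindrome that dimers of STAT factors bind. A second was GGTGTGA, the core element of T-box factors such as T-bet. For GATA factors the letters were AGATAA, and those searched for the RUNX factors of lymphocytes were TGTGGTT. In the Nkg7 window TTCNNNGAA began at position -220 from the start and GGTGTGA at -13, and in the Gzma window the RUNX letters lay on the opposite strand from -51. Promoter windows were found for 24 of the 34 markers. TTCNNNGAA was in 4 of the 24 (Cd3d, Foxp3, Nkg7 and Ifng), against 8.13% of all genes with a window of that length. GGTGTGA was in 1 (3.84% of all genes), AGATAA in 2 (11.4%) and TGTGGTT in 6, namely Lck, Gzma, Gzmb, Klrk1, Ncr1 and Il17f (5.08%). These matches are descriptions of the letters and not binding sites.

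For the other markers the filgotinib differences did not pass. Tbx21, which encodes T-bet, the factor of type 1 helper and NK cells, was 2.34 to 5.55% in the DSS vehicle mice and 1.67 to 3.35% in the filgotinib mice, -0.80 ± 0.26 (adjusted p = 0.063). Tbx21 was well above background on 2 water, 3 DSS vehicle and 0 filgotinib arrays, so the filgotinib value lies at the detection limit. Gata3 measured 3.5, 9.93, 7.38, 5.97 and 1.63% in the filgotinib mice. Of these, 3 lay below every DSS vehicle mouse, and the change was -1.15 ± 0.47 (adjusted p = 0.125). Cd5 was at -1.09 ± 0.38 (adjusted p = 0.0785) and Cd2 at -0.90 ± 0.49 (adjusted p = 0.247). Cd6 measured 11.1, 10.9, 12, 16.9 and 10.2%, -0.20 ± 0.14 (adjusted p = 0.387), with mouse 4 above every DSS vehicle mouse. All 4 receptor complex genes were between -0.47 and -0.09, with adjusted p from 0.13 to 0.633.

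Averaged over the 22 tested markers and set to the water mean, the water mice lay between -0.16 and 0.16 on the log2 scale. The DSS vehicle mice were at 0.33, 0.20, 0.76, 0.54 and 1.09 (0.58 ± 0.35, SD, n = 5). The filgotinib mice were at 0.03, 0.50, 0.27, 0.37 and -0.32 (0.17 ± 0.32, SD, n = 5). Mouse 5 of the DSS vehicle group held the highest value of 12 of the 22 markers, mouse 5 of the filgotinib group the lowest of 8, and the DSS vehicle group as a whole held 19 of the 22 highest values. The same counts were not made over all genes. A marker near the detection limit could also have passed the filter through the group in which it was higher. Without DSS vehicle mouse 5 or filgotinib mouse 5, the filgotinib changes of some markers turned sign. Cd28 was at 0.17, Lck at 0.02 and Cd8b1 at 0.01 without the former, and Cd28 at 0.03 without the latter.

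**Figure D4:**
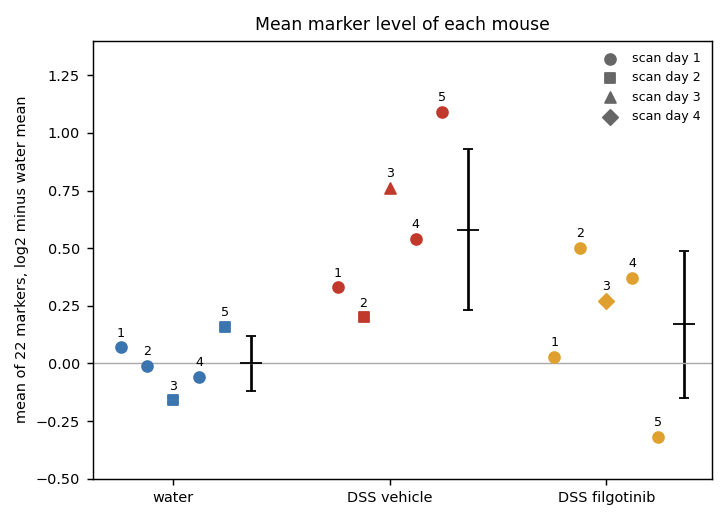
Mean log2 level of the 22 tested markers in each mouse minus the mean of the water mice (vertical axis), by group, with mouse numbers beside the points and symbols for the scan day; bars at the right of each group are the mean and SD over 5 mice. The DSS vehicle mice lie between 0.20 and 1.09, above the water range of -0.16 to 0.16, and the filgotinib mice spread from -0.32 to 0.50.

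Within the first scan day, 3 DSS vehicle against 3 water mice, the median marker difference was 0.53, with 22 of 22 above 0. The median of all genes there was 0.03. Those water mice lay on slide 1 and those DSS vehicle mice on slide 2, so slide and group cannot be told apart on that day. On slide 4, with 1 DSS vehicle and 2 water mice, the median marker difference was 0.21, with 16 of 22 above 0, against a median of 0.07 for all genes. For filgotinib against DSS vehicle, the median was -0.36 on the first scan day (4 against 3 mice) and -0.30 on slide 2 (2 against 3). With slide as a fixed block, DSS vehicle and water meet on slide 4 alone, and 0 markers were called in each comparison. Few genes of any kind were called in that setting. The shares of all genes were 0.395% for DSS vehicle against water, 1.92% for filgotinib against DSS vehicle and 0.00909% for filgotinib against water.

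**Figure D5:**
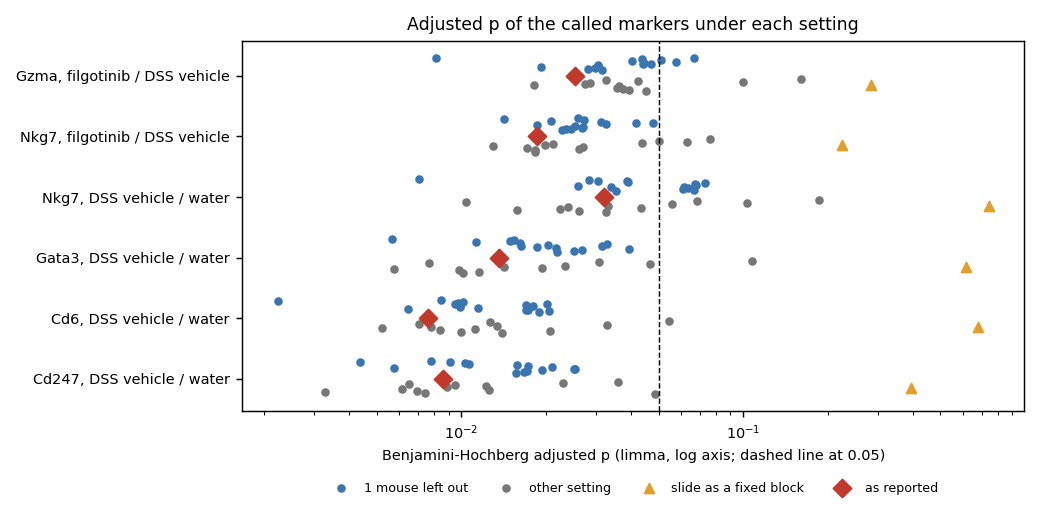
Benjamini-Hochberg adjusted p (limma, log axis) of the 4 markers called against water and the 2 called for filgotinib, as reported (red), with 1 mouse left out (blue), with slide as a fixed block (triangles) and under the other settings (grey). With slide as a fixed block each lies right of the dashed line at 0.05, and for Nkg7 against water so do 7 of the 15 settings that leave out 1 mouse.

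Marker genes of other cells moved in the same samples. Against water, 4 of 12 B and plasma cell markers, 2 of 14 macrophage and monocyte markers, 4 of 8 mast cell markers and 3 of 5 pan-leukocyte markers were higher in the DSS vehicle group, with medians of 0.31, 0.73, 0.97 and 1.23, and 1 mast cell marker was lower. Of all genes 10.6% were higher and 8.45% lower in that comparison, 19% in all, and 14.3% of the macrophage and monocyte markers were called. For filgotinib against the DSS vehicle group the medians of these lists were -0.21, -0.39, -0.74 and -0.80. In the same order 1, 1, 4 and 0 markers were lower, and 1 mast cell marker was higher. There 4.66% of all genes were lower and 6.33% higher. The 2 tested eosinophil markers, Siglecf and Alox15, went the other way: both were lower against water (median -1.83). Siglecf alone was called higher with filgotinib (adjusted p = 0.00749), and the median of the 2 was 1.13. Alox15 was well above background on 5 water, 0 DSS vehicle and 1 filgotinib array, so the size of its changes is not settled. The other eosinophil names, Siglec5, Epx, Prg2, Ccr3 and Il5ra, were not tested. Of 7 neutrophil markers 2 were higher against water and 1 was lower with filgotinib (medians 0.21 and -0.15), of 4 dendritic cell markers 1 and 0 (0.74 and -0.44), and of 4 neuron and glia markers 2 and 2 (0.75 and -0.62). The dendritic cell markers Zbtb46, Xcr1, Clec9a, Cd209a and Ccl22 and the mast cell markers Cpa3, Tpsab1 and Ms4a2 did not reach the detection minimum. The summed pan-leukocyte level was 474 to 666% in the water mice, 642 to 1050% in the DSS vehicle mice and 531 to 757% in the filgotinib mice. The summed macrophage level was 14500 to 18300%, 25600 to 36100% and 16400 to 35700%. A large part of that sum came from 2 genes, Ly6c2 and Ly6c1, the 2 markers of the list called against water. Ly6c2 had group means of 5120, 11800 and 7420%, and Ly6c1 of 4850, 10900 and 7110%. Mouse 5 of the DSS vehicle group was the highest mouse in the per-mouse means of B cell (1.44), macrophage (1.63), pan-leukocyte (1.67) and fibroblast markers (2.49). Of 8 fibroblast markers 0 were called against water in limma, with 2 higher at an unadjusted p under 0.05 and a median of 1.52. For filgotinib against the DSS vehicle group 0 of the 8 were called. There 2 were lower at an unadjusted p under 0.05, where 11.9% of all genes were, and the fibroblast median was -1.33. Against water 5 of 10 epithelial markers were higher, with a median of 0.26, and with filgotinib 0 were called (median 0.0). Summed epithelial marker level was 120000 to 136000% in the water mice, 149000 to 164000% in the DSS vehicle mice and 134000 to 156000% in the filgotinib mice. The part of these cells in the T and NK marker values was not tested.

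Further genes of T cell receptor signalling and costimulation, 26 tested, gave 4 higher and 1 lower against water, with a median of 0.22. That is 19.2% called, near the 19% of all genes. The inhibitory receptor genes Havcr2 (1.55 ± 0.47, adjusted p = 0.0329) and Btla (1.84 ± 0.61, adjusted p = 0.0483) were called at levels near the detection limit, with 1 and 2 of 5 water arrays well above background. The Havcr2 call was lost in 4 of 12 other settings and 6 of 15 fits without 1 mouse, and the Btla call in 8 of 12 and 10 of 15. With normexp and quantile normalization the differences were 0.42 and 0.60. Vav1, a guanine nucleotide exchange factor of blood cells, fell by 0.64 on the log2 scale (SE 0.14, adjusted p = 0.00641), from 233 to 149%. With filgotinib it was at 207% (0.48 ± 0.14, adjusted p = 0.0419), the 1 call among the 26 in that comparison, which was lost in 8 of 13 other settings and 8 of 15 fits without 1 mouse.

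Of 13 tested cytotoxic granule and NK receptor genes outside the 34, 4 were higher against water, with a median of 0.44. That is 30.8% called, where 19% of all genes were called and 10.6% were higher. For filgotinib 0 were called in limma, where 11% of all genes were, with 1 higher and 3 lower at an unadjusted p under 0.05 (median -0.16). Hcst, the DAP10 adaptor of NKG2D, rose from 399 to 540.0% (0.44 ± 0.08, adjusted p = 0.00236). Il2rb, the beta chain shared by the IL-2 and IL-15 receptors, rose 2.04-fold (1.03 ± 0.26, adjusted p = 0.0135), and by 0.35 with normexp and quantile normalization. Cst7 and Serpinb9, inhibitors of granule proteases, were the other called genes. Cst7 was well above background on 1 of 5 water and 3 of 5 DSS vehicle arrays, and its water mean of 1.17% lay below the lowest signal called above background on any water array, 1.80 to 2.65%. Its fitted difference, 1.55 ± 0.39 (adjusted p = 0.0147), was 0.35 with normexp and quantile normalization, so its size is not settled. Serpinb9 went from 14.9 to 20.8% with overlap (0.48 ± 0.15, adjusted p = 0.0426), a call lost in 5 of 13 other settings and 10 of 15 fits without 1 mouse. Il2rb was at -0.76 ± 0.26 for filgotinib, which did not pass (adjusted p = 0.069).

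Helper T cell and innate lymphoid cell fate genes, 26 tested, had 5 higher and 1 lower against water, with a median of 0.13. That is 23.1% called, where 19% of all genes were. Il1rl1, the receptor for the alarmin IL-33, carried by group 2 innate lymphoid cells, regulatory T cells and mast cells, was not well above background on any water array. In the reported setting it was at least 21.5-fold higher in the DSS vehicle group (fit adjusted p = 0.000342). That bound takes the brightness at which probes are called above background as the water level. With normexp and quantile normalization the log2 difference was 2.72 (adjusted p = 0.000246), a smaller rise than the bound, so its size is not settled. With filgotinib Il1rl1 was lower by -3.62 ± 0.81 (adjusted p = 0.013), or -2.05 with normexp and quantile normalization. Of the filgotinib arrays, 2 of 5 were well above background. The transcription factor genes Prdm1 (1.06 ± 0.24) and Ets1 (0.69 ± 0.18) rose. Id2, needed by innate lymphoid cells and also expressed in epithelium, fell from 218 to 96.0% (-1.18 ± 0.15, adjusted p = 0.000296) and was at 215% with filgotinib (1.17 ± 0.15, adjusted p = 0.000798).

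Lymphocyte homing and adhesion genes, 16 tested, had 4 higher and 0 lower against water (25.0% called, where 19% of all genes were). With filgotinib 2 were lower (12.5%, where 11% of all genes were called), and the 2 medians were 0.53 and -0.35. Ccr7, the receptor that brings naive T cells and dendritic cells into lymphoid tissue, rose 4.40-fold (2.14 ± 0.37, adjusted p = 0.00185), from 3.33 to 14.6%, and by 1.03 with normexp and quantile normalization. It was at 6.0% with filgotinib, where 3 of 5 arrays were well above background (-1.29 ± 0.37, adjusted p = 0.0389), and that call was lost in 6 of 12 other settings and 7 of 15 fits without 1 mouse. Itgal, the alpha chain of the integrin LFA-1, was lower with filgotinib than in the DSS vehicle group by -0.61 ± 0.12 (adjusted p = 0.00758), without overlap. That call was lost with the mean of its passing probes (adjusted p = 0.273) and with slide as a fixed block (-0.47, adjusted p = 0.118). Over the other settings the change ran from -0.61 to -0.29. The Itgal difference from water, 0.37 ± 0.12 without overlap, passed narrowly (adjusted p = 0.0479). This second call was lost in 12 of 13 other settings and 12 of 15 fits without 1 mouse. Itgb7, whose product pairs with alpha 4 or alpha E in gut homing, rose 2.38-fold (1.25 ± 0.30, adjusted p = 0.0111). The Itgb7 call was lost with slide as a fixed block and on the first scan day alone (1.49, adjusted p = 0.0564). Cxcr6 rose 1.38-fold (0.47 ± 0.13, adjusted p = 0.0222), a call lost in 3 of 13 other settings and without DSS vehicle mouse 5. These receptors are also found on B cells and myeloid cells.

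Of 31 names for gamma delta T cell and intraepithelial lymphocyte genes, 14 were on the array and 9 were tested. Against water 2 were higher and 1 was lower (33.3% of these 9 called, where 19% of all genes were). For filgotinib against the DSS vehicle group 0 were called in limma, where 11% of all genes were. At an unadjusted p under 0.05, 2 were higher and 2 lower there (median 0.04). Btnl2, a butyrophilin-like gene, rose from 12.9 to 18.6% (0.53 ± 0.12, adjusted p = 0.00884). Il15ra went from 249 to 295% (0.24 ± 0.08, adjusted p = 0.0384), a call lost in 7 of 13 other settings and 8 of 15 fits without 1 mouse. Il15, the cytokine that maintains NK cells and intraepithelial lymphocytes, fell from 438 to 298% (-0.56 ± 0.13, adjusted p = 0.00958).

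The 12 markers below the detection minimum included the defining cytokines of type 1 and type 17 T cells. Ifng, Il17a and Il17f were well above background on 0 of 15 arrays, as were Cd8a, Ctla4, Eomes, Klrb1c and Ncr1. Gzmb reached it on 1 water array, Foxp3, the regulatory T cell factor, on 2 water and 1 filgotinib array, and Icos and Cd69 on 2 DSS vehicle arrays each. The reported fit therefore gives no fold change for them.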

How the data were processed

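RNA of 15 mice was hybridised to one-colour Agilent arrays, 1 per mouse. The authors deposited scanner files of spot intensity from Agilent Feature Extraction 11.5.1.1, per the file headers, with background-subtracted processed signals, and a table of log2 values for 32349 probes that the authors deposited and that served as an alternative. Here log2 of the processed signal was set to each array's 75th percentile over non-control spots, spots with outlier marks were left out, and spots of a probe were averaged. The brightest probe well above background on at least 5 of 15 arrays stood for a gene. All arrays entered 1 limma fit (limma 3.58.1, R 4.3.3) with group as the factor and Benjamini-Hochberg adjustment over 22012 genes, called at an adjusted p under 0.05. Probe names were updated through RefSeq accessions and symbols, and 13013 of 56504 probes kept the file's name. The members and the lists were chosen with earlier results of these data known, so no list has a test of its own. All members are named, and of each further list up to 4 called genes with the smallest adjusted p in the first 2 comparisons; a gene that this rule names is not reported here. The scripts were tested on simulated data. Alternatives covered scaling, background, detection filter, probe choice, slide, scan day, replicate number and each mouse left out. Arrays of the first scan day alone were added after seeing the data.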

Additional observations from a re-analysis of the deposited data

Results flagged for a closer look

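Each of the 22 tested markers was checked in each group, 66 groups of 5 mice in all, for a highest or lowest mouse far from the nearest of the others; chance gives about 1 in 20 such groups, and 2 were found. Cd28 in mouse 5 of the DSS vehicle group was 17%, against 5.44 to 6.91% in the other 4. Klrk1 in mouse 5 of the water group was 3.29%, against 2.68 to 2.79% in the other 4.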

How the results depend on the processing

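Settings are compared with the reported counts of markers called and medians. Against water, 4 DSS vehicle markers became 0 with slide as a fixed block (0.395% of all genes called, against 19%), where the comparison rests on 1 DSS vehicle and 2 water mice and the median was 0.21, and 1 (Cd247) on the first scan day alone (7.32% of all genes); leaving out 1 mouse gave 3 to 7, with 7 without DSS vehicle mouse 2 (16.5% of all genes), and medians of 0.44 to 0.62. For filgotinib against DSS vehicle, 2 became 0 with the slide block (1.92% of all genes, against 11%) and on the first scan day (9.39%), and 1 with a scan day block (14.1%), with only the groups compared (5.53%) and with the replicate block (7.18%); leaving out 1 mouse gave 1 to 3, with 1 without DSS vehicle mouse 5 or filgotinib mouse 5, and medians of -0.52 to -0.15. For filgotinib against water, 1 (Cd247) became another gene, Prf1, under quantile normalization, and 0 under median scaling, normexp with quantile normalization, the deposited table, a filter of at least 1 array, slide as a fixed or random block, only the groups compared, the replicate block and the first scan day, settings under which 0.00909 to 6.31% of all genes were called, against 9.1%, and became 2 with a filter of all arrays (12.3%); leaving out 1 mouse gave 0 to 1 and medians of 0.10 to 0.25, and the slide block turned the median to -0.12. Normexp with quantile normalization took the marker medians from 0.53 to 0.28, from -0.31 to -0.17 and from 0.18 to 0.12, and the per-mouse means from 0.58 to 0.30 for the DSS vehicle group and from 0.17 to 0.11 for the filgotinib group. For filgotinib against DSS vehicle the median was also nearer 0 with the deposited table (-0.18) and the filter of all arrays (-0.17). The slide block reduces the comparison against water and the first scan day holds fewer mice. The cause of the changes between settings was not tested.

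Replicate numbers do not pair mice by design, and the correlation of same-numbered mice's deviations from their group means was above 0.1 in 3 of 5 pairs for DSS vehicle and water (-0.14 to 0.53), in 2 of 5 for filgotinib and DSS vehicle (-0.52 to 0.12) and in 0 of 5 for filgotinib and water (-0.39 to -0.02). With the replicate number as a block, 3 markers were called against water, 1 for filgotinib against DSS vehicle and 0 for filgotinib against water. In the same order, 15.1, 7.18 and 3.03% of all genes were called in that setting.

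Single genes whose sign turned against water were Itgae (-0.17) and Lck (-0.04) with the mean of probes, and Cd28 (-0.09), Cd3g (-0.06), Cd8b1 (-0.39), Itgae (-0.21), Lck (-0.20), Thy1 (-0.41) and Btla (-0.04) with the slide block. For filgotinib against DSS vehicle these were Klrd1 (0.10) and Btnl2 (0.13) with the slide block, Cd8b1 (0.07) with a scan day block, Il15ra (-0.02) with the mean of probes, Btnl2 (0.00) on the first scan day, Cd28 (0.17), Cd8b1 (0.01) and Lck (0.02) without DSS vehicle mouse 5, Cd28 (0.03) without filgotinib mouse 5, and Il15ra without DSS vehicle mouse 2 (-0.02) or filgotinib mouse 1 (-0.00). Over all settings that leave out 1 mouse, these filgotinib values ran from -0.29 to 0.17 for Cd28, from -0.23 to 0.01 for Cd8b1 and from -0.02 to 0.08 for Il15ra. None of the turned values passed the threshold. Of 28 alternatives (27 for Gata3), Cd247, Cd6, Gata3 and Nkg7 were called against water in 27, 26, 25 and 16, and Nkg7 and Gzma for filgotinib in 24 and 22. Signal over background limits Gata3, Cd5, Cd2, Tbx21, Klrk1, Cd3g, Cd28 and Klrd1, which were not well above background on every array.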

Other observations

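Among the markers that were not tested, Icos, a costimulatory receptor of activated T cells, was at 1.49, 2.07, 7.69, 1.59 and 5.28% in the DSS vehicle mice, above the water mice at 0.437 to 0.912%, but only mice 3 and 5 were well above background. In the filgotinib mice it was 0.783 to 3.25% on 0 arrays well above background. Under a filter of at least 1 array, 26 markers were tested against water. Icos was then among the 5 called higher, where 14.5% of all genes were called. As 0 water arrays were well above background for Icos, the size of that difference is not settled. Cd69, an early activation marker, was at 38.3% in mouse 3 of the DSS vehicle group and at 0.535 to 3.29% in the other 4.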
